A study of Mus musculus with 8 samples.

Results

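The genes described here serve the presentation of peptides on MHC class I molecules. They are the light chain gene B2m, the heavy chain genes H2-D1, H2-K1 and H2-T23, and the peptide loading genes Tapbp, Tap1 and Tap2. They were taken from the gene count table by matching its Ensembl identifiers to these symbols, and all 7 were found among the 22430 genes of the table. Each also lay among the 9375 genes with a mean count over 5, which were the genes tested between the ages.

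Brain mRNA of young adult and aged mice was measured with Oxford Nanopore direct RNA sequencing, in which RNA molecules are read without amplification. The 6m group held 4 mice aged 6 months and the 24m group 4 mice aged 24 months. All were males of the C57Bl/6JRj strain, and 1 library was made per mouse from a brain hemisphere. Total counts ran from 573152 in 6m replicate 2 to 1255424 in 24m replicate 4.

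MHC class I molecules consist of a heavy chain that holds a short peptide and the invariant light chain, beta-2 microglobulin, without which most heavy chains do not reach the cell surface. Peptides made by the proteasome are pumped into the endoplasmic reticulum by the TAP transporter and loaded with the help of tapasin, and cytotoxic T cells inspect the finished complexes. In the brain, class I transcripts are known from microglia and endothelium and, at lower levels, from neurons, and interferons raise them in many cell types.

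The libraries carried the marker genes of brain tissue. Levels are given as CPM, counts expressed relative to library size, scaled between libraries by the trimmed mean of M values (TMM). The 8 neuronal markers summed to 1514 ± 105.2 CPM (SD, n = 4) at 6m and 2214 ± 338.5 CPM (SD, n = 4) at 24m. The library 24m replicate 1 stood apart from the rest in immune genes. It held 702 of the 744 counts of the immunoglobulin light chain gene Igkc at 24m, and its 9 class II presentation genes summed to 309.4 CPM against 54.5 to 80.1 CPM in the other 24m libraries. Results for the 7 genes are therefore given with and without this library.

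Between 24m and 6m, 3 of the 7 genes were changed, namely B2m, H2-D1 and H2-K1, and each was higher at 24m. A gene counted as changed when its adjusted p did not exceed 0.05 and its log2FC was 0.58 or more in size. Of all tested genes, 14.5% were changed in either direction and 10.3% were changed and higher. The 24m libraries all lay above the 6m libraries for the same 3 genes, and for 11.1% of all tested genes. The median log2FC was 0.64 over the 7 genes and -0.003 over all tested genes. With 24m replicate 1 left out, B2m alone among the 7 was changed, against 1594 of all 9463 genes tested in that fit, so the number changed does not then set the 7 genes apart. In whole tissue, a larger number of expressing cells and more RNA per cell cannot be told apart.

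**Figure D1:**
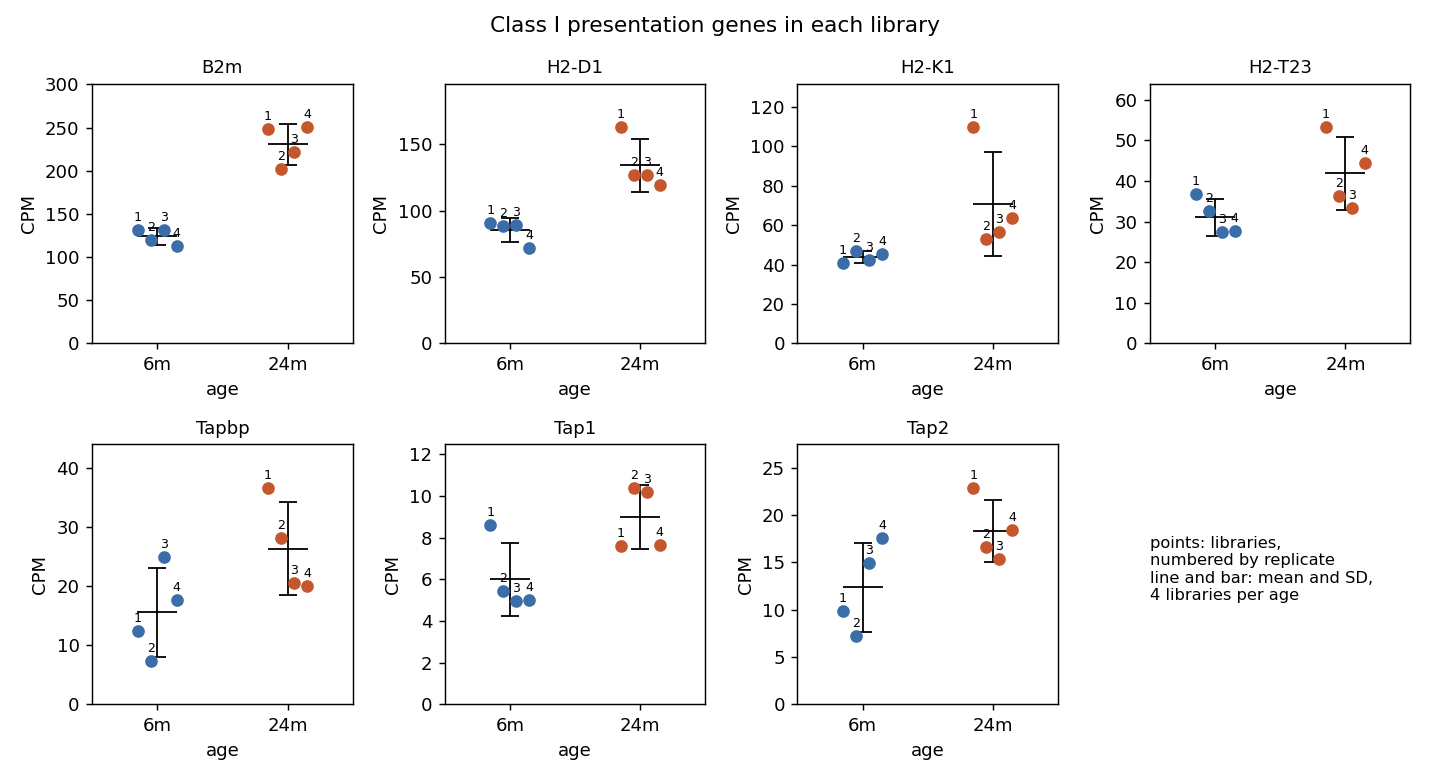
Level of each gene (vertical axis, CPM) in each library at 6m and 24m. Points are libraries numbered by replicate, and lines with bars are the mean and SD of 4 libraries. The ages do not overlap for B2m, H2-D1 and H2-K1, and 24m replicate 1 is the highest library for H2-D1, H2-K1, H2-T23, Tapbp and Tap2.

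B2m (ENSMUSG00000060802), which encodes the light chain, lies on the forward strand at chr2:121977957-121983594 (GRCm39), and its exons overlap no other annotated gene. Its level was 131.7, 119.3, 131.9 and 113.0 CPM in the 6m replicates 1 to 4. In the 24m replicates 1 to 4 it was 248.5, 201.7, 221.4 and 250.8 CPM. The lowest 24m library thus lay well above the highest 6m library, and 24m replicate 1 was close to 24m replicate 4. The mean rose from 124.0 ± 9.39 CPM to 230.6 ± 23.4 CPM (SD, n = 4 each). The log2FC was 0.89 (SE 0.118, 95% interval 0.65 to 1.13), with an adjusted p of 6.77e-06 by the edgeR quasi-likelihood test (Benjamini-Hochberg). Leaving out 24m replicate 1 gave 0.87, with an adjusted p of 1.83e-06 by the same edgeR test, and over all 19 alternatives the adjusted p ran from 3.16e-10 to 8.77e-05.

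The heavy chain genes lie within the major histocompatibility complex on chromosome 17. H2-D1 (ENSMUSG00000073411, chr17:35481691-35486475, forward strand, GRCm39) encodes a classical heavy chain. Its level was 91.1, 88.6, 89.6 and 71.6 CPM in the 6m replicates 1 to 4, and 163.1, 126.8, 126.7 and 119.7 CPM in the 24m replicates 1 to 4. The ages did not overlap, 6m replicate 4 lay below the other 6m libraries and 24m replicate 1 above the other 24m libraries. The mean rose from 85.2 ± 9.15 CPM to 134.1 ± 19.6 CPM (SD, n = 4 each), and the log2FC was 0.64 (SE 0.143, 95% interval 0.35 to 0.94). The adjusted p was 0.00233 by the edgeR quasi-likelihood test (Benjamini-Hochberg). Without 24m replicate 1 the log2FC was 0.55, under the minimum for a changed gene, with an adjusted p of 0.00253 by the same edgeR test, and without 6m replicate 4 it was 0.57. Over the 19 alternatives, the adjusted p of H2-D1 by edgeR, DESeq2 or limma-voom ran from 0.000323 to 0.0131.

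H2-K1 (ENSMUSG00000061232, chr17:34214987-34219321, reverse strand, GRCm39) encodes the other classical heavy chain of these mice. Its level was 40.6, 47.0, 42.3 and 45.2 CPM in the 6m replicates 1 to 4, and 109.7, 53.0, 56.3 and 63.7 CPM in the 24m replicates 1 to 4. The ages did not overlap, but 24m replicate 1 stood far above the other 24m libraries, which were only slightly higher than 6m. The mean rose from 43.8 ± 2.86 CPM to 70.7 ± 26.4 CPM (SD, n = 4 each), and the log2FC was 0.66 (SE 0.201, 95% interval 0.24 to 1.07). The adjusted p was 0.0207 by the edgeR quasi-likelihood test (Benjamini-Hochberg). Without 24m replicate 1 the log2FC was 0.42 and the adjusted p by the same edgeR test 0.0626, the highest among 19 alternatives that reached down to 0.00374, so the call for H2-K1 did not hold without that library. It was also lost without 6m replicate 1, with a log2FC of 0.63 and an adjusted p of 0.0559 by the same edgeR test, and with limma-voom, where the log2FC was 0.57.

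H2-T23 (ENSMUSG00000067212, chr17:36340229-36345571, reverse strand, GRCm39) encodes a nonclassical heavy chain that presents leader peptides of other class I molecules to receptors of natural killer cells. Its level was 36.9, 32.5, 27.4 and 27.6 CPM in the 6m replicates 1 to 4, and 53.3, 36.4, 33.3 and 44.5 CPM in the 24m replicates 1 to 4. The ages overlapped, since 24m replicates 2 and 3 lay below 6m replicate 1. The log2FC was 0.42 (SE 0.202, 95% interval 0.01 to 0.84), with an adjusted p of 0.141 by the edgeR quasi-likelihood test (Benjamini-Hochberg), so H2-T23 did not pass. It was 0.33 without 24m replicate 1.

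Heavy chain genes are alike in sequence, and how reads that fit several of them were counted is not given in the sources used here. The H2-D1 transcript of 2117 bases matched H2-K1 at 89.8% identity over 1477 bases. The H2-K1 transcript of 1619 bases matched H2-D1 at 88.2% over 1508 bases, and that of H2-T23 matched H2-K1 at 84.3% over 971 bases. The copy nearest to any of them was the pseudogene H2-T11-ps, which is not in the table and matched the H2-T23 transcript at 95.6% over 1068 bases, so the H2-T23 counts are uncertain. The split of reads among the heavy chain genes is therefore uncertain, and so is their sum if a read was counted for more than 1 of them. Summed over H2-D1, H2-K1 and H2-T23, the level was 160.1 ± 11.3 CPM in the 6m libraries against 246.6 ± 53.3 CPM in the 24m libraries (SD, n = 4 each), which is 1.54 times as high. The sum lay between 144.4 and 168.6 CPM in the 6m libraries. It was 326.2 CPM in 24m replicate 1 and between 216.3 and 227.8 CPM in the other 24m libraries, so the ratio of 1.54 rests in part on 24m replicate 1. Over all 30 class I heavy chain genes of the table, 11 of them without a single count, the sum was 1.53 times as high at 24m.

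Promoter sequences are shown for B2m, H2-D1, H2-K1 and H2-T23, since the first 3 were changed together and all 4 held a motif that was searched for. They come from RefSeq (GRCm38.p6), which listed a promoter for 6 of the 7 genes, all except Tap2, and they span 250 bases before to 50 bases after the start. Capitals mark matches on either strand to the interferon response element (GAAA, 2 unspecified bases, GAAA), to a shorter form of it (AA, 2 unspecified bases, GAAA), which overlaps it, and to the class I kappa B site. The B2m promoter is on the forward strand at chr2:122147437-122147736, that of H2-D1 on the forward strand at chr17:35262844-35263143, the first listed for H2-K1 on the reverse strand at chr17:34000298-34000597, and that of H2-T23 on the reverse strand at chr17:36032652-36032951.
B2m: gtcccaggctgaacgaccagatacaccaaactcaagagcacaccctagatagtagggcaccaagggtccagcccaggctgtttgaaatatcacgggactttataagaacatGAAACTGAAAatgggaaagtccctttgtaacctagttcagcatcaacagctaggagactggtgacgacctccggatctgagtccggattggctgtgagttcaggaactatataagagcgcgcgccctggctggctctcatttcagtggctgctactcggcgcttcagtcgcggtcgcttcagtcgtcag
H2-D1: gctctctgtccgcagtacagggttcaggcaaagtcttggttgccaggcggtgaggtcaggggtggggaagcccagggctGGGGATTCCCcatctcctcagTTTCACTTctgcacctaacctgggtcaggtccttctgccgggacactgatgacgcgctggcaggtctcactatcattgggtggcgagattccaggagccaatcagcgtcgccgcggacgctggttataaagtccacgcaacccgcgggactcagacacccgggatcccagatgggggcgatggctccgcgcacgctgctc
H2-K1: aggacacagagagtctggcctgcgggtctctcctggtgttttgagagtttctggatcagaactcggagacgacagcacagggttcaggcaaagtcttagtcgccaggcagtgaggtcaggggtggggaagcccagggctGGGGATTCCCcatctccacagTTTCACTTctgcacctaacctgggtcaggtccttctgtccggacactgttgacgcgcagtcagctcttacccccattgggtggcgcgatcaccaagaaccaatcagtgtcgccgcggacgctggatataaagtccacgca
H2-T23: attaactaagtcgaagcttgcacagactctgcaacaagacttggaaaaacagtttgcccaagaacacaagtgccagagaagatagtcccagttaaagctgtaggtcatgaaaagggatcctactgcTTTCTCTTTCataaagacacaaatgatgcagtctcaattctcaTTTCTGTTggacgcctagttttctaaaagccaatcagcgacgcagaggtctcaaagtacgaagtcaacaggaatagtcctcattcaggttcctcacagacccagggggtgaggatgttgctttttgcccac

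The interferon response element was found in the promoters of B2m, 139 to 130 bases before the start, and H2-T23, 124 to 115 bases before the start, and in 3.44% of 32851 promoters. The shorter form was found in B2m, H2-D1, H2-K1 and H2-T23 and in 23.9% of all promoters. The class I kappa B site was found in H2-D1, 171 to 162 bases before the start, and in H2-K1, 111 to 102 bases before the first listed start, and in 0.107% of all promoters. The promoters of H2-D1 and H2-K1 were identical at 211 of 239 aligned bases. These matches are descriptions of sequence.

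The peptide loading genes were low in count and none of them was changed. Tapbp (ENSMUSG00000024308, chr17:34134873-34148267, forward strand, GRCm39) encodes tapasin, which holds empty class I molecules at the transporter. Its level was 12.3, 7.23, 24.9 and 17.6 CPM in the 6m replicates 1 to 4, and 36.6, 28.1, 20.5 and 19.9 CPM in the 24m replicates 1 to 4. The ages overlapped through 6m replicate 3. The log2FC was 0.66 (SE 0.302, 95% interval 0.04 to 1.28), as large as that of H2-K1 but less precise, with an adjusted p of 0.123 by the edgeR quasi-likelihood test (Benjamini-Hochberg). Without 6m replicate 3 the log2FC was 0.98 and Tapbp passed, with an adjusted p of 0.0475 by the same edgeR test, and over its 18 alternatives the adjusted p reached 0.28. Tapbp shares exon bases on the same strand with Zbtb22, which is also in the table.

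Tap1 and Tap2 encode the subunits of the peptide transporter. Tap1 (ENSMUSG00000037321, chr17:34405996-34416199, forward strand, GRCm39) had 7, 3, 4 and 4 counts in the 6m replicates 1 to 4, and 5, 10, 8 and 10 counts in the 24m replicates 1 to 4. The ages overlapped, and counts this small leave little precision. Its log2FC was 0.55 (SE 0.397, 95% interval -0.27 to 1.36), with an adjusted p of 0.356 by the edgeR quasi-likelihood test (Benjamini-Hochberg). The mean count of Tap1 was 4.5 at 6m and 8.25 at 24m, so that it entered the tested genes through the 24m libraries. Its exons overlap those of Psmb9 on the opposite strand, and whether counting used strand is not given in the sources used here. Hspa1a and Gm20481, which overlap in position on opposite strands, had near equal counts in every library, with 29 each in 24m replicate 4. Reads of Psmb9 may therefore be part of the Tap1 counts.

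Tap2 (ENSMUSG00000024339, chr17:34422501-34435829, forward strand, GRCm39) had 8, 4, 12 and 14 counts in the 6m replicates 1 to 4, and 15, 16, 12 and 24 counts in the 24m replicates 1 to 4. On the CPM scale the ages overlapped, with 6m replicate 4 inside the 24m range. Its log2FC was 0.50 (SE 0.311, 95% interval -0.14 to 1.14), with an adjusted p of 0.263 by the edgeR quasi-likelihood test (Benjamini-Hochberg). The intervals of Tapbp, Tap1 and Tap2 all include the log2FC of B2m, and those of Tap1 and Tap2 also include 0. When 24m replicate 1 was left out, the log2FC was 0.50 for Tapbp, 0.60 for Tap1 and 0.42 for Tap2.

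**Figure D2:**
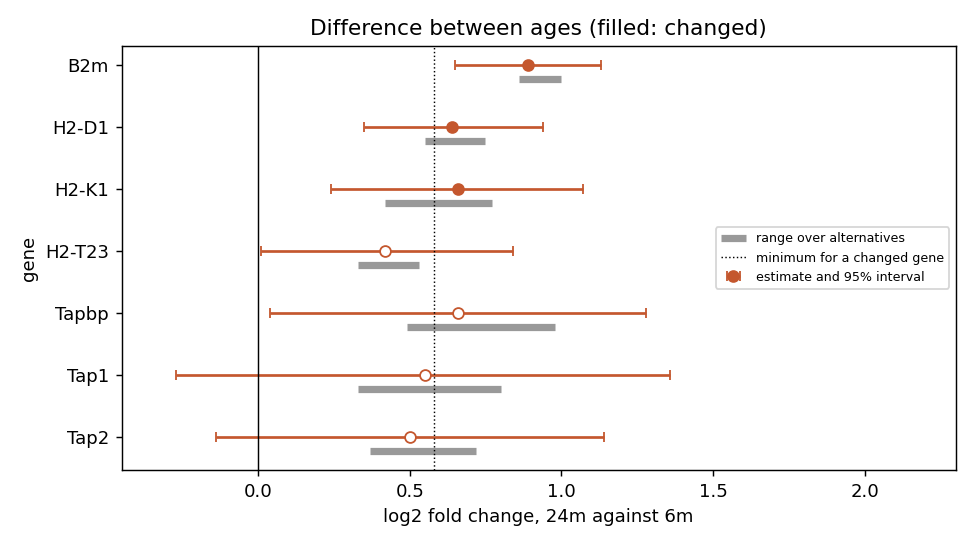
Difference between the ages (horizontal axis, log2FC of 24m against 6m) for each gene. Points are estimates with 95% intervals, filled where the gene was changed, grey bars span the estimates under the alternative analyses and the dotted line is the minimum of 0.58. The grey bars of all 7 genes lie above 0, and that of B2m, from 0.86 to 1.00, stays above the minimum.

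Levels were compared between genes in CPM without scaling by length, since a direct RNA read stems from 1 molecule. At 6m, B2m stood at 124.0 ± 9.39 CPM, H2-D1 at 85.2 ± 9.15, H2-K1 at 43.8 ± 2.86 and H2-T23 at 31.1 ± 4.54 (SD, n = 4 each). The loading genes were lower, with Tapbp at 15.5 ± 7.55, Tap2 at 12.4 ± 4.71 and Tap1 at 6.01 ± 1.75 CPM (SD, n = 4 each). The order at 24m was the same, from B2m at 230.6 ± 23.4 to Tap1 at 8.98 ± 1.54 CPM (SD, n = 4 each). Genes next to each other in this order overlapped in range over the libraries among Tapbp, Tap2 and Tap1 at 6m, and among H2-K1, H2-T23, Tapbp and Tap2 at 24m.

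Proportions within a library do not depend on scaling between libraries, but they do depend on how reads that fit several heavy chain genes were counted. H2-D1 made up 54.0%, 52.7%, 56.2% and 49.6% of the H2-D1, H2-K1 and H2-T23 reads in the 6m replicates 1 to 4, and 50%, 58.7%, 58.6% and 52.5% in the 24m replicates 1 to 4. With 93 to 297 such reads per library, the 95% Clopper-Pearson intervals were wide, from 45.3% to 62.6% in 6m replicate 1, and cover counting error only. The ages overlapped, and the mean share was 53.1% ± 2.79 at 6m and 54.9% ± 4.37 at 24m (SD). The difference of 1.81 percentage points had an adjusted p of 0.51 in a two-sided exact permutation test over 70 assignments, with adjustment over the 2 proportions.

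B2m gave 0.781, 0.710, 0.828 and 0.783 reads per read of the 3 heavy chain genes in the 6m replicates 1 to 4, and 0.762, 0.933, 1.02 and 1.1 in the 24m replicates 1 to 4. The 24m replicate 1 lay among the 6m libraries and the other 24m libraries above them. The mean log2 ratio was -0.369 ± 0.0924 at 6m and -0.0802 ± 0.23 at 24m (SD). The difference of 0.289 had a p of 0.11 and an adjusted p of 0.23 in the exact permutation test. The smallest p the design allows is 0.029, which becomes 0.057 when adjusted beside a proportion that does not differ, so this test could not pass 0.05 on the ratio alone. Without 24m replicate 1 the difference was 0.393 and the ages did not overlap, which gave that smallest p of 0.029 and an adjusted p of 0.057 in the exact permutation test. Other alternatives reached an adjusted p of 0.4. The values therefore do not settle whether B2m and its heavy chains differ in their change with age.

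**Figure D3:**
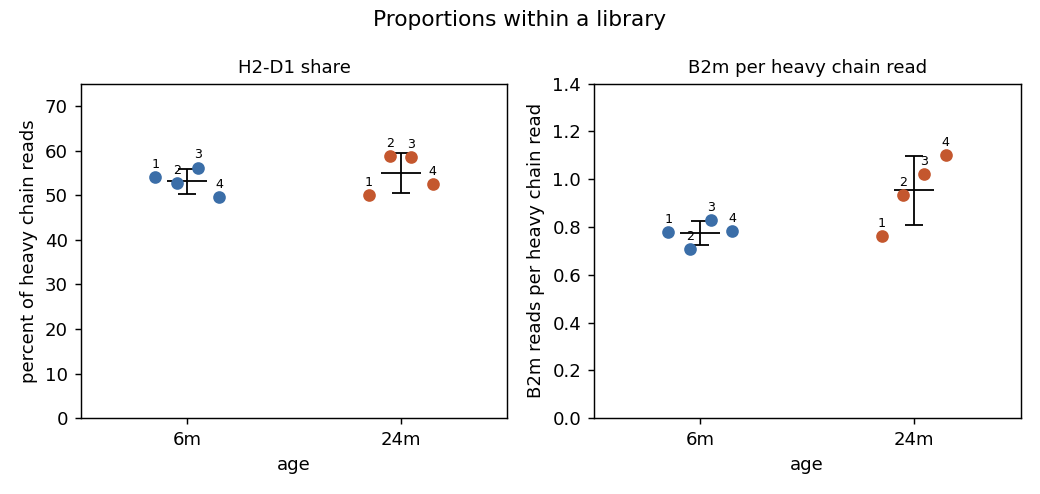
Share of H2-D1 in the reads of H2-D1, H2-K1 and H2-T23 (left, percent) and B2m reads per read of these 3 genes (right) in each library at 6m and 24m. Points are libraries numbered by replicate, with mean and SD of 4 libraries. The ages overlap in both, and in the right panel 24m replicate 1, at 0.762, lies among the 6m libraries.

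Other genes of the pathway were counted from lists. Beside these counts, 14.5% of all tested genes were changed and 10.3% were changed and higher. Of 9 genes of loading and chaperoning in the endoplasmic reticulum, 6 were tested and 1 was changed, Sec61a1, a subunit of the translocation channel, at a log2FC of 0.89 (SE 0.242). Its adjusted p was 0.0108 by the edgeR quasi-likelihood test (Benjamini-Hochberg), and from 0.00433 to 0.0674 over the 19 alternatives, the latter by DESeq2 on quantile-normalized counts. The median log2FC of the tested genes of this list was -0.11, and without 24m replicate 1 the number changed was 2. Of the 6 immunoproteasome and activator genes, all tested, 0 were changed by edgeR, DESeq2 or limma-voom and 2 had an unadjusted p under 0.05 by edgeR. Their median log2FC was 0.24 and 4 of 6 were positive, namely Psmb8 at 0.82, Psmb9 at 0.76 from 13 counts at 6m and 28 counts at 24m, Psme3 at 0.39 and Psme1 at 0.10. Psmb10, the most abundant of them, had an adjusted p of 0.024 by edgeR but fell short of the fold minimum with a log2FC of -0.39. Of the 3 constitutive catalytic subunits of the proteasome, 0 were changed by edgeR, DESeq2 or limma-voom and 2 had an unadjusted p under 0.05 by edgeR. Psmb6 was lower at 24m, with an adjusted p of 0.000951 by edgeR and of at most 0.0082 over the 19 alternatives, and missed only the fold minimum, at a log2FC of -0.47. Psmb5 had a log2FC of -0.24.

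Of 23 genes of class I transcription and interferon signalling, 15 were tested and 0 were changed by the main edgeR fit, DESeq2 or limma-voom, while 4 had an unadjusted p under 0.05 by edgeR. Under 7 of 19 alternatives, all with edgeR, 1 to 3 genes of this list were changed, 3 with library sizes alone and 2 without 24m replicate 1. The median log2FC of the list was 0.25. The 2 most abundant were Rfxank, at a log2FC of -0.54, and Nfyc, at 0.25. Rfxank passed without 24m replicate 1, at -0.62 with an adjusted p of 0.00541 by the same edgeR test. The class I transactivator gene Nlrc5 had 1 count in 6m replicate 4, 1 in 24m replicate 2 and none elsewhere. Of 20 interferon-responsive genes, 10 were tested and 1 was changed, Lgals3bp, which encodes a secreted glycoprotein, from 25.6 ± 3.09 CPM to 71.1 ± 17.8 CPM (SD, n = 4 each). Its log2FC was 1.42 (SE 0.197), with an adjusted p of 1.3e-05 by the edgeR quasi-likelihood test (Benjamini-Hochberg). The 1 of 10 is close to the 10.3% of all tested genes that were changed and higher. Under 6 of 19 alternatives, 2 or 3 genes of this list were changed, and without 24m replicate 1 the number remained 1. The median log2FC of the tested interferon-responsive genes was 0.26, and their level summed over the list was 457.5 to 534.2 CPM at 6m and 579.7 to 789.6 CPM at 24m, highest in 24m replicate 1.

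Of 34 other class I and class I-like genes, 14 had no count in any library, 3 were tested and 0 were changed by edgeR, DESeq2 or limma-voom or had an unadjusted p under 0.05 by edgeR, and 1 was changed when no filter was used. H2-T22, the most abundant, had a log2FC of 0.18 (95% interval -0.24 to 0.60), and Fcgrt, the neonatal Fc receptor, -0.39. The third tested gene, H2-T10, had a log2FC of 0.65 (SE 0.413, adjusted p 0.279 by edgeR) from 18 counts at 6m and 35 counts at 24m. Every 24m library lay above every 6m library in CPM, but H2-T10 entered the tested genes through the 24m libraries. Of 9 class II presentation genes, 5 were tested and 0 were changed by the main edgeR fit, DESeq2 or limma-voom, while 3 had an unadjusted p under 0.05 by edgeR. By edgeR, 3 were changed with no filter, 3 with the replicate block and 2 without 24m replicate 4. The median log2FC was 0.99, the value of Cd74. The list summed to 309.4 CPM in 24m replicate 1, against 54.5 to 80.1 CPM in the other 24m libraries and 61.5 to 80 CPM at 6m. Cd74, the invariant chain, was at 18.5, 19.9, 13.7 and 17.6 CPM in the 6m replicates 1 to 4 and at 99.1, 18.7, 25.6 and 12.3 CPM in the 24m replicates 1 to 4. Its log2FC of 0.99 came to 0.07 without 24m replicate 1. Cd74 passed by edgeR with no filter (adjusted p 0.00195), with the replicate block (adjusted p 0.0191) and without 24m replicate 4 (adjusted p 0.0186), all of which keep 24m replicate 1. H2-DMa, a class II peptide exchanger, had a log2FC of 0.06. The 9 class I receptor genes summed to between 0.767 and 2.08 CPM in the 24m libraries, none was tested, and Cd8a and Cd8b1 were among the 5 with no count.

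Microglial markers were higher at 24m together with the class I genes. Of 14 such markers, 11 were tested and 3 were changed, all higher, namely Tmem119, Tyrobp and Ctss, with a median log2FC of 0.44 over those tested. Among all tested genes, 10.3% were changed and higher. The call for Tmem119 was lost under 4 of 19 alternatives and those for Tyrobp and Ctss under 1 each. The list summed to 913.3, 933.0, 973.3 and 953.1 CPM in the 6m replicates 1 to 4 and to 1425, 1129, 1267 and 1220 CPM in the 24m replicates 1 to 4, and C1qa was its most abundant gene. The ages did not overlap. The share of this in the higher level of B2m, H2-D1 and H2-K1 was not tested. The 10 endothelial markers, which also belong to cells that carry class I molecules, summed to 1179 ± 55.1 CPM in the 6m libraries against 892.5 ± 57.1 CPM in the 24m libraries (SD, n = 4 each), but most of this sum was Bsg, at 998.3 CPM at 6m and 741.6 CPM at 24m. Of 5 tested, 1 had a positive log2FC, Itm2a at 0.06, and the median log2FC was -0.43. Of the same 5, 0 were changed by the main edgeR fit or DESeq2, 1 by limma-voom, and 2 had an unadjusted p under 0.05 by edgeR. Ly6c1, at a log2FC of -0.58 that fell just short of the minimum before rounding, passed under 5 of 19 alternatives.

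Markers of perivascular macrophages and monocytes summed to 34.5 to 41.4 CPM at 6m and 55.2 to 100.6 CPM at 24m, with Lyz2 higher, Ly6c2 lower and Ccr2 and Lyve1 at 0 in every library. Ly6c2 had 33 counts at 6m and 14 counts at 24m, so that it entered the tested genes through the 6m libraries. The call for Ly6c2 was lost under 2 of 18 alternatives. Markers of B and plasma cells summed to 77.5, 52.4, 61.0 and 52.7 CPM in the 6m replicates 1 to 4 and to 1885, 119.6, 46.1 and 52.9 CPM in the 24m replicates 1 to 4. In 24m replicate 1, Igkc stood at 1070 CPM and Ighm at 791.1 CPM, and Ms4a1 had no count in any library. The same library, 24m replicate 1, was the highest for H2-D1, H2-K1 and H2-T23. The part of these cells in that was not tested. Markers of T and natural killer cells summed to 27.1 to 30.7 CPM at 6m and 24.3 to 39.6 CPM at 24m, most of it Trbc2, while Cd3e, Cd8a, Cd8b1, Gzma and Gzmb had no count in any library.

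**Figure D4:**
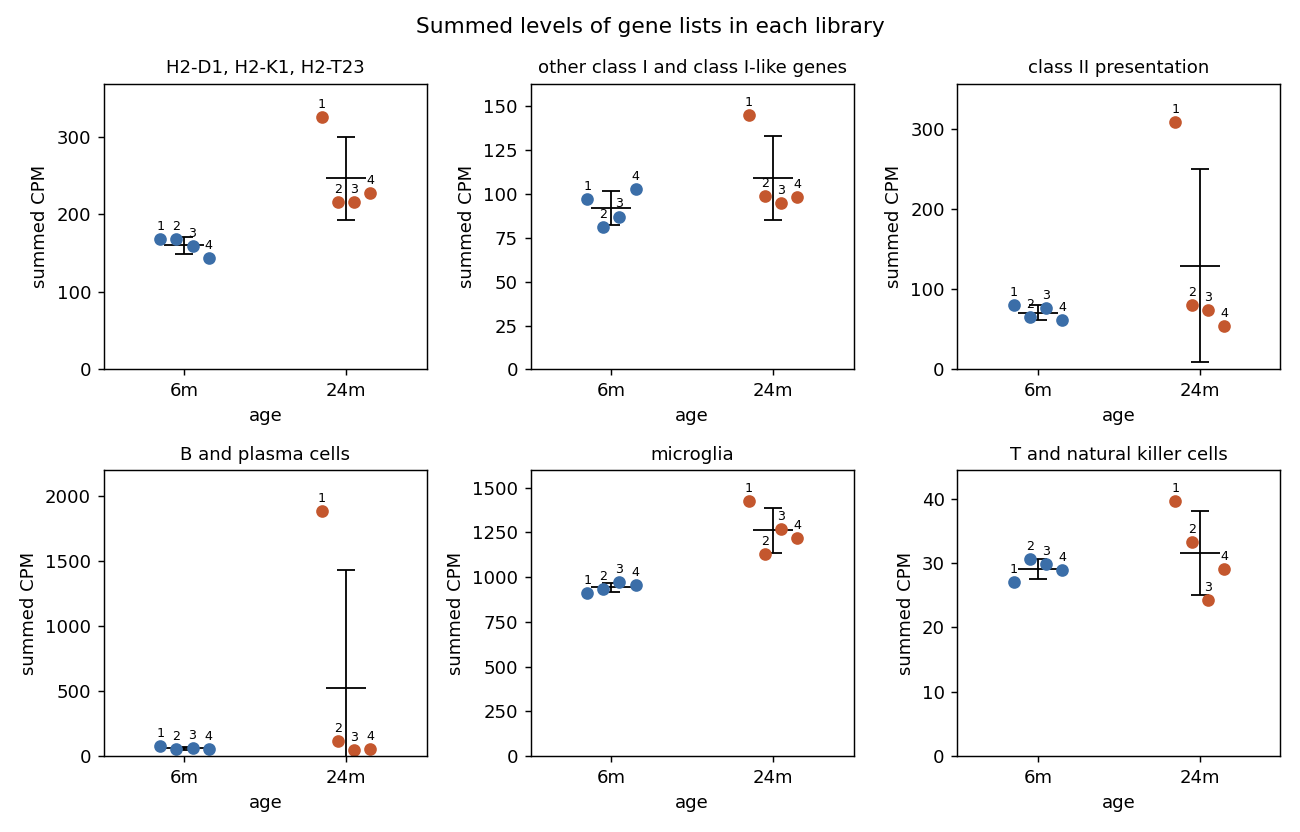
Summed level (vertical axis, CPM) of 6 groups of genes in each library at 6m and 24m. Points are libraries numbered by replicate, with mean and SD of 4 libraries, and the lower bar for B and plasma cells is clipped at 0. The 24m replicate 1 is the highest library in each panel, at 1885 CPM for B and plasma cells, and the ages do not overlap for the heavy chain and microglia panels.

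A higher level at 24m was not particular to microglial markers. The neuronal markers summed to 1422 to 1653 CPM at 6m and 1721 to 2492 CPM at 24m, and the oligodendrocyte markers to 1870 to 2437 CPM at 6m and 2556 to 3448 CPM at 24m. The ages did not overlap for either list, and both were 1.46 times as high at 24m, against 1.34 times for the microglial markers. The log2FC was positive for 7 of 8 neuronal markers, all but Gad2 (-0.48), and for 5 of 6 oligodendrocyte markers, all but Mag (-0.08). The astrocyte markers, most of whose sum was Aldoc, overlapped between the ages, at 2231 to 2721 CPM at 6m and 2277 to 2989 CPM at 24m. Neuronal markers had 3 of 8 tested genes changed, all higher, oligodendrocyte markers 2 of 6, both higher, and astrocyte markers 4 of 5, 3 higher and 1 lower. Among all tested genes, 14.5% were changed and 10.3% were changed and higher. DESeq2 on raw counts called 2 neuronal, 2 oligodendrocyte and 3 astrocyte markers, DESeq2 on quantile-normalized counts 1, 3 and 3, and limma-voom 3, 3 and 4. Slc1a2, the lower astrocyte marker, lost its call under 9 of 19 alternatives. Among the neuronal markers, Slc17a7 lost its call under 4 of 19, Gad1 under 2 and Snap25 under 2, the latter in both DESeq2 fits (adjusted p 0.111 and 0.0958). By edgeR, all 5 erythroid genes were changed and lower, but 4 were by DESeq2 on raw counts, 2 by DESeq2 on quantile-normalized counts and 3 by limma-voom. The call for Alas2 was lost under 10 of 18 alternatives, that for Hba-a2 under 3 of 19 and that for Hba-a1 under 2 of 19. Of 3 choroid plexus and 2 meningeal and fibroblast markers tested, 0 were changed by the main edgeR fit, DESeq2 or limma-voom, and 1 of the former had an unadjusted p under 0.05 by edgeR. That gene, Folr1, passed under 4 of 19 alternatives, all with edgeR, at a log2FC of -0.80 to -1.10 and an adjusted p of 0.0102 to 0.0456. The part of the cells of these lists in the class I result was not tested.

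Of the 7 genes, 6 lie between 34134873 and 36345571 on chromosome 17 (GRCm39), an interval of 2.21 megabases that holds 123 other genes of the table. Of those, 69 were tested, 1 gene was higher and 4 genes lower among those changed, with a median log2FC of -0.02. Over all tested genes 14.5% were changed. The number changed in the interval was 3 without 6m replicate 1, 24m replicate 3 or 24m replicate 4, and 2 with library sizes alone or with more than 5 counts in every library. The gene changed and higher was C4b, a complement component, from 57.3 ± 3.32 CPM to 139.5 ± 12.9 CPM (SD, n = 4 each), and the log2FC was 1.27 (SE 0.143). Its adjusted p was 1.06e-06 by the edgeR quasi-likelihood test (Benjamini-Hochberg). Dxo, with a log2FC of -0.70, and Stk19, with -0.69, were the next in size, and the call for Dxo was lost under 11 of 19 alternatives.

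The tested genes most like B2m over the 8 libraries, by the root mean square difference in centred log2 CPM, were Cdkn2aipnl (0.113), Map4k3 (0.123), Septin9 (0.123), Ppp1r17 (0.125) and Wdr20 (0.125). None of these is a class I gene. H2-D1 differed from B2m by 0.182 on this measure and H2-K1 by 0.294.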

How the data were processed

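The authors deposited unnormalized gene counts, obtained from direct RNA reads with featureCounts after mapping to GRCm39 (minimap2 2.24, from the submitters' processing notes). The labels name another library kit than the study's methods, which were followed. Columns were assigned to mice by their labels. Gene names and positions came from GENCODE M39, in which 149 identifiers had no match. Counts were tested with edgeR 4.0.16 in R 4.3.3 (TMM, quasi-likelihood, Benjamini-Hochberg over all tested genes), age being the only term. DESeq2 1.42.0 and limma 3.58.1 served as alternatives, with other scalings, filters, a replicate block and each library left out. Tests were checked on simulated counts. Transcripts were compared with BLAST+ 2.17.0 (identity of at least 75%, at least 25% of the transcript). From each pathway list, changed genes or otherwise the 2 most abundant tested genes are named, and from the interval the 3 changed genes with the largest log2FC. Genes and lists were chosen with earlier results of these data known, and other genes named were chosen after their values were seen.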

Additional observations from a re-analysis of the deposited data

Results flagged for a closer look

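In each age, the highest or lowest library was set against the other 3 for 146 groups of values, and 14 stood apart. Chance alone gives about 1 in 20 groups, or 7.3 here. Of the 14, 9 were in 24m replicate 1. In that library, H2-D1 was at 163.1 CPM and the heavy chain genes H2-D1, H2-K1 and H2-T23 summed to 326.2 CPM, both above the other 24m libraries. Other class I and class I-like genes summed to 144.8 CPM there, class II presentation genes to 309.4 CPM, with Cd74 at 99.1 CPM, and B and plasma cell markers to 1885 CPM, with Ighm at 791.1 CPM and Igkc at 1070 CPM. The neuronal gene Snap25 was lower there, at 260.6 CPM. Elsewhere, H2-D1 was low in 6m replicate 4, at 71.6 CPM, Tap1 was high in 6m replicate 1, at 8.62 CPM from 7 counts, and C4b was low in 24m replicate 4, at 120.4 CPM. The total count of 6m replicate 2, 573152, was below those of the other 6m libraries. The class I receptor genes summed to 1.81 CPM there, above the other 6m libraries, but this was 1 count in each 6m library and so restates that total.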

How the results depend on the processing

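The number of changed genes was 1359 and lay within 1.5 times of that under 17 of 19 alternatives, the exceptions being DESeq2 on raw counts, with 834, and on quantile-normalized counts, with 819. The cause was not tested. Leaving out 1 library gave 989 to 1594 genes. Higher genes made up 71.2% of the calls, 84.5% with library sizes alone, where the median log2FC of all genes moved to 0.102, and 59.2% with limma-voom. All 7 class I presentation genes had a positive log2FC under every alternative that tested them, while 49.7% of all tested genes were positive in the main fit. Tap1 entered the tested genes through the 24m libraries. With more than 5 counts in every library, Tap1, Tap2 and Tapbp were not tested. The number changed among the 7 was 3, and from 1 to 4 with 1 library left out. It was 1 without 24m replicate 1, where 1594 of all 9463 tested genes were changed. B2m was changed in all 19 alternatives, H2-D1 in 17 and H2-K1 in 16. With the replicate block, 1308 genes and 3 of the 7 were changed. Libraries of the same number did not deviate together (correlations 0.0647, -0.0101, 0.0051 and -0.16). This gives no sign that the numbers pair the mice but cannot exclude it. The difference in the H2-D1 share ran from 0.572 to 3.46 percentage points and that in the B2m log2 ratio from 0.216 to 0.393 with 1 library left out, none past the threshold. For the log2 ratio this was set by the design, since the smallest p of 0.029 becomes 0.057 when adjusted beside a proportion that does not differ. Some log2FC changed sign. Ighm, changed at 1.97, ran from -0.05 to 2.35 with 1 library left out, -0.05 being without 24m replicate 1, and DESeq2 gave no adjusted p for Ighm and Igkc. The other sign changes were in genes that were not changed. H2-DMa was at -0.06 with limma-voom and from -0.05 to 0.19 with 1 library left out. Trbc2 was at 0.05 with library sizes alone and from -0.16 to 0.03 with 1 library left out. Ttr was at 0.15 with DESeq2 on quantile-normalized counts, 0.07 with limma-voom and from -0.27 to 0.05 with 1 library left out. Dcn was at -0.12 and -0.04 in the same settings and from -0.19 to 0.22 with 1 library left out. Col1a2 was at 0.04 with library sizes alone and from -0.19 to 0.14 with 1 library left out.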
